A study of Mus musculus with 2 samples.

Results

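The genes described here encode the actin cytoskeleton and its regulators: actins, the Arp2/3 complex, actin-related proteins, cofilins, profilins, β-thymosins, coronins, capping proteins, crosslinkers, membrane linkers and leukocyte adaptors. They were chosen by symbol, as all symbols starting with Arpc, Actr or Coro and a digit, the cofilin, profilin, β-thymosin and Capz families, and 13 single genes. The rule took 52 of the 23924 gene symbols in the table. It used no measured value, but was set with earlier results of these data known. The data are 2 sequencing libraries of RNA immunoprecipitated from nuclear extracts of RAW 264.7 cells, a mouse macrophage line. Both libraries came from macrophages depleted of mRrp6 (Exosc10, a ribonuclease of the nuclear exosome) and exposed to LPS at 80 ng/ml for 12 h. Rabbit IgG gave the control, called the IgG pull-down here, and an antibody to nucleolin, an RNA-binding protein of the nucleolus, gave the nucleolin pull-down. An untreated or undepleted sample and an input RNA library were not analysed here. The study asked which transcripts nucleolin targets.

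Actin exists as single subunits and as filaments. The Arp2/3 complex starts new branches on existing filaments, profilin delivers subunits to growing ends, capping proteins stop that growth, and cofilin with its partners takes old filaments apart. Macrophages depend on this cycle for crawling, membrane ruffling and phagocytosis, and the messenger RNAs of β-actin, cofilin, profilin and thymosin β4 are among the abundant transcripts of such cells.

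Values are FPKM, fragments scaled to transcript length and to the mapped fragments of each library, so levels of different genes are on a per-length scale. With 1 library per group there is no measure of replicate spread, no test and no p-value, and every difference below is one between these 2 libraries. A gene was compared where it reached 1 FPKM in at least 1 pull-down, and a gene under 0.1 FPKM in a library is given as listed at 0 or as at or near 0 there. Differences are log2 ratios of nucleolin over IgG with 1 FPKM added to each value, which understates the change of low genes. Total read numbers are unknown, but depth was low. Among 246 low genes that had a single transcript row and a value in both pull-downs, 157 (63.8%) had a nucleolin-to-IgG ratio of 0.393 within 0.05 on the log2 scale. This was taken as the ratio given by equal read numbers. By that ratio, a read added 2.54 times as many FPKM in the IgG pull-down as in the other. A gene with the same number of reads in both therefore stood at a median log2 ratio of -1.23, close to the median of -1.27 over all 3194 genes compared.

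The IgG pull-down stood apart from what its cell label names. All 8 gastric and digestive markers were listed in it and at 0 in the nucleolin pull-down (summed level 19888 FPKM against 0), as were 5 of 6 epithelial markers (448 against 0, Epcam at 0 in both) and all 8 smooth muscle and fibroblast markers (425 against 0). Of 10 macrophage markers 4 were listed in the IgG pull-down and 7 in the nucleolin pull-down, with sums of 612 and 525 FPKM. These marker lists were chosen with earlier results of these data known, so their counts are descriptions and not a test. Over all genes compared, 46% were in the IgG pull-down only and 37.1% in the nucleolin pull-down only. Cd14 was at 319 and 207 FPKM and Cd68 at 138 and 16.2 FPKM, while Lyz2 and Csf1r were at 0 in the IgG pull-down and at 199.6 and 22.6 FPKM in the nucleolin pull-down. Many of the genes described here are also expressed in epithelium and muscle. Their IgG values stand beside these marker levels, and the part of other cell types in them was not tested. There is no second control library, so no value could be given without this one.

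Of the 52 genes 22 (42.3%) reached 1 FPKM in at least 1 pull-down, against 13.4% of all genes in the table. Of these 22, 9 were in both pull-downs, 7 in the nucleolin pull-down only and 6 in the IgG pull-down only. The shares over all genes compared were 16.8% in both, 37.1% in the nucleolin pull-down only and 46% in the IgG pull-down only. The other 30 genes were below 1 FPKM in both, and all of them were at 0. The 5 highest members held 85.2% of the summed FPKM of the 52 genes in the IgG pull-down and 79.6% in the nucleolin pull-down. Leaving out Rn45s, Lars2, Mir6236 and Mir142b, which dominated the libraries, the 52 genes made up 1.86% of the remaining summed FPKM in the IgG pull-down and 2.47% in the nucleolin pull-down.

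**Figure D1:**
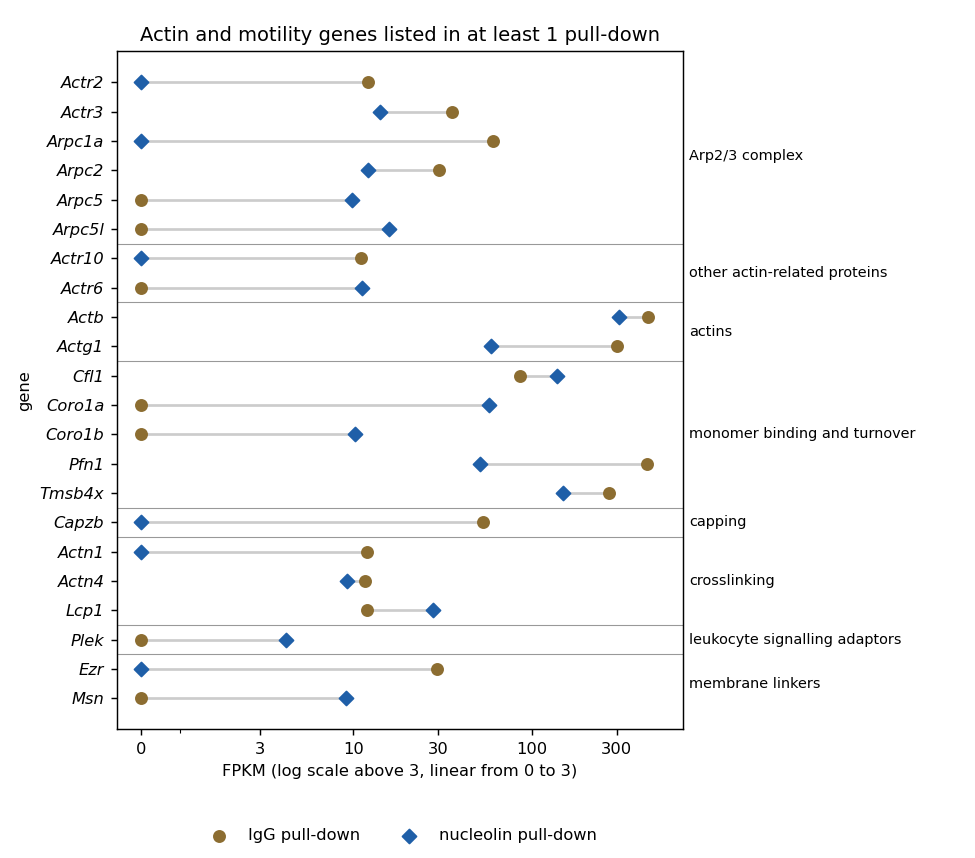
Level of each of the 22 listed genes in FPKM (horizontal axis, log scale above 3 FPKM and linear below) in the IgG pull-down (brown circles) and the nucleolin pull-down (blue diamonds), grouped by role, with a grey line joining the pair and no error bars because each group had 1 library. Actb, Pfn1, Actg1 and Tmsb4x are the highest in the IgG pull-down, and 13 of the 22 genes lie at 0 in one pull-down.

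The cytoplasmic actins were present in both pull-downs at different ratios. Actb, β-actin, was at 450.9 FPKM in the IgG pull-down and 307.6 FPKM in the nucleolin pull-down, where it ranked 22nd and 10th among all genes. Actg1, γ-actin, stood at 299.7 and 59.4 FPKM, with 5.05 times as much in the IgG pull-down. The log2 ratio of Actb was -0.55 and that of Actg1 was -2.32. The 2 genes encode nearly the same protein and their coding sequences are alike, so reads shared between them, or with the muscle actins, could have been placed in either. The smooth muscle actins Acta2 and Actg2, which are outside the rule, were at 35.7 and 37.98 FPKM in the IgG pull-down and 0 in the nucleolin pull-down. On mm10, Actb lies on chromosome 5 from 142903115 to 142907976 and Actg1 on chromosome 11 from 120345687 to 120348495.

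Cytoplasmic actin genes and several of their partners are textbook targets of serum response factor, which binds a motif called the CArG box. This motif was searched on both strands, being its own reverse complement in form, in RefSeq windows from 250 bases before to 50 bases after gene starts (GRCm38.p6, the assembly behind mm10). It was found in 2 of 51 windows of the 44 members with an entry (3.92%), against 1.63% of all 32851 windows. The matches were in Actg1 and in Arpc4, a branching-complex subunit gene that was at 0 in both pull-downs. Actb was among the members without an entry. The 250 bases before the start of Actg1 are shown because this was the only listed gene of the set with a match. They lie on the minus strand at chr11:120348496-120348745, read 5′ to 3′ toward the gene, with the CArG box in capitals at 90 to 81 bases before the start. The libraries hold immunoprecipitated RNA and do not measure activity of this promoter.

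Actg1 promoter: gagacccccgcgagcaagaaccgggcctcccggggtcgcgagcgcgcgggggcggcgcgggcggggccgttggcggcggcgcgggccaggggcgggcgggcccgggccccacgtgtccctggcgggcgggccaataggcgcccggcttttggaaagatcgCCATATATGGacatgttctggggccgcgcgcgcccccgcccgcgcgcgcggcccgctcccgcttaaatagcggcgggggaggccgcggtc

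Among the proteins that bind actin subunits or take filaments apart, the 3 abundant transcripts differed in direction. Cfl1, cofilin 1, which severs filaments, was at 86.1 FPKM in the IgG pull-down and 138 FPKM in the nucleolin pull-down, a log2 ratio of 0.68. Pfn1, profilin 1, which feeds subunits to growing ends, stood at 443 and 51.7 FPKM, with 8.58 times as much in the IgG pull-down (log2 ratio -3.08). Tmsb4x, thymosin β4, which holds subunits in reserve, was at 271 and 150.7 FPKM, a log2 ratio of -0.84. As deposited, Cfl1 was thus the only one of the 3 with a higher level in the nucleolin pull-down. With 1 read set equal Tmsb4x also stood higher there (0.50), as it did when centred on all genes (0.42). Cfl1 lies on chromosome 19 from 5490455 to 5494031, Pfn1 on chromosome 11 from 70651844 to 70656799 and Tmsb4x on chromosome X from 167207093 to 167213479.

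Of the coronins, which bind filaments and act with the branching complex and cofilin, only Coro1a and Coro1b were listed. Both were in the nucleolin pull-down alone, as were 37.1% of all genes compared. Coro1a, the coronin of blood cells (chromosome 7 from 126699774 to 126704816), was at 0 in the IgG pull-down and 57.6 FPKM in the nucleolin pull-down. Nearly all of it lay on 1 of its 2 transcript rows, with 0.031 FPKM on the other. Coro1b was at 0 and 10.2 FPKM. The read numbers that gave Coro1a 57.6 FPKM would have given 146 FPKM in the IgG pull-down, and those of Coro1b 25.9 FPKM. Of the 20 genes in this role group 5 (25%) were compared, against 13.4% of all genes in the table. The other 15 were at 0 in both pull-downs: Cfl2, Pfn2, Pfn3, Pfn4, Tmsb10, Tmsb15a, Tmsb15b1, Tmsb15b2, Tmsb15l, Wdr1, Coro1c, Coro2a, Coro2b, Coro6 and Coro7.

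Subunits of the Arp2/3 complex, the branching machine, were listed in both pull-downs and in each one alone. Of its 10 genes 6 (60%) were compared, against 13.4% of all genes in the table. Of the 6, 2 were in both pull-downs, 2 in the IgG pull-down only and 2 in the nucleolin pull-down only. The shares over all genes compared were 16.8%, 46% and 37.1%. As deposited, 4 of the 6 were at least 2-fold lower in the nucleolin pull-down and 2 at least 2-fold higher. Over all genes compared these shares were 56.7% and 37.8%. Actr3, one of the pair of actin-like subunits, was at 35.96 FPKM in the IgG pull-down and 14.2 FPKM in the nucleolin pull-down. Arpc2, a subunit of the core that holds the complex to the mother filament, was at 30.3 and 12.0 FPKM. Both stood at the ratio of equal reads, with log2 ratios of -1.29 and -1.26. Setting 1 read equal in both pull-downs divides by that same ratio, so both had to come to a log2 ratio near 0 (0.00 and 0.02).

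The other 4 listed subunits were each in a single pull-down. Actr2, the partner of Actr3, was at 12.2 FPKM in the IgG pull-down, and Arpc1a, one of the alternative forms of the same subunit as Arpc1b, was at 61.0 FPKM there, both at 0 in the nucleolin pull-down. Arpc5 and Arpc5l, which encode alternative forms of the smallest subunit, were at 9.88 and 15.8 FPKM in the nucleolin pull-down and at 0 in the IgG pull-down. Arpc1b, Arpc3, Arpc4 and Actr3b were at 0 in both. A value of 0 at this depth does not tell an absent transcript from one that was not sampled. Summed over the 10 genes the level was 139 FPKM in the IgG pull-down and 51.9 FPKM in the nucleolin pull-down.

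The remaining actin-related proteins are not part of that complex. Actr10, a dynactin subunit, was at 11.1 FPKM in the IgG pull-down and 0 in the nucleolin pull-down. Actr6, a nuclear protein of a chromatin remodelling complex, was at 0 and 11.2 FPKM. Actr1a, Actr1b, Actr5 and Actr8 were at 0 in both.

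**Figure D2:**
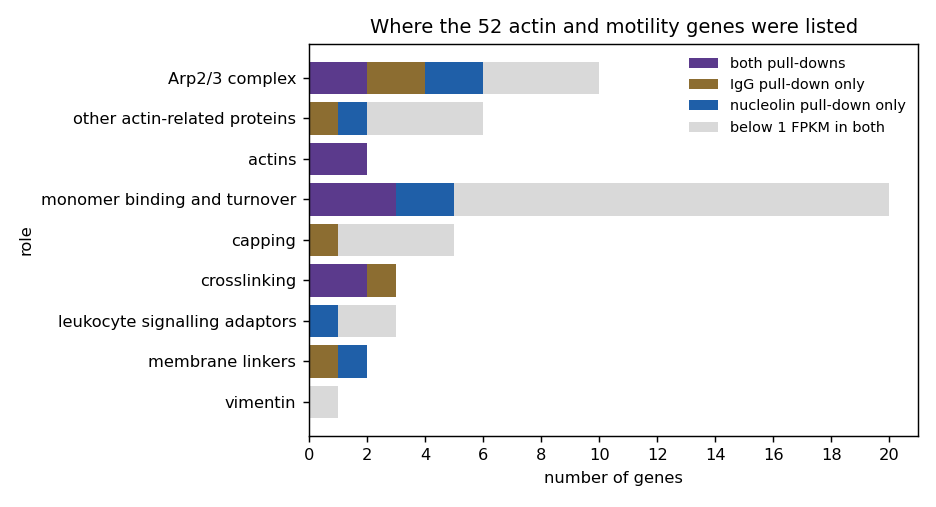
Number of genes in each role group (horizontal axis) that were in both pull-downs (purple), in the IgG pull-down only (brown), in the nucleolin pull-down only (blue) or below 1 FPKM in both (grey). Both actins and all 3 crosslinkers were listed, whereas 15 of the 20 genes for monomer binding and turnover were not.

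Capping proteins were represented by 1 transcript. Capzb, the β subunit of the heterodimer that caps growing ends, was at 53.3 FPKM in the IgG pull-down and 0 in the nucleolin pull-down, with nearly all of it on 1 of its 4 transcript rows. Capza1, Capza2 and Capza3, the α subunits, and Capg, a capping protein abundant in macrophages, were at 0 in both pull-downs.

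All 3 crosslinker genes were listed and compared, against 13.4% of all genes in the table. Lcp1, L-plastin, the filament-bundling protein of leukocytes, was at 11.9 FPKM in the IgG pull-down and 28.0 FPKM in the nucleolin pull-down, 2.35 times higher, with a log2 ratio of 1.17. Actn4, α-actinin 4, was at 11.7 and 9.18 FPKM, and Actn1, α-actinin 1, was at 11.9 FPKM in the IgG pull-down and 0 in the nucleolin pull-down. Lcp1 was the only one of the 9 genes in both pull-downs at least 2-fold higher in the nucleolin pull-down as deposited, against 3.72% of the 538 genes in both.

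The membrane linkers, close relatives that tie filaments to the plasma membrane, fell on opposite sides. Ezr, ezrin, which is prominent in epithelia, was at 29.5 FPKM in the IgG pull-down and 0 in the nucleolin pull-down. Msn, moesin, the main form in leukocytes, was at 0 and 9.11 FPKM. Beside Ezr, the epithelial markers Krt8, Krt18 and Krt19 were at 185, 106 and 108 FPKM in the IgG pull-down and at 0 in the nucleolin pull-down, and their part in the Ezr value was not tested.

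Of the leukocyte adaptors, Plek, pleckstrin, a substrate of protein kinase C, was at 0 in the IgG pull-down and 4.23 FPKM in the nucleolin pull-down. Was, the Wiskott-Aldrich syndrome protein that activates the branching complex in blood cells, and Lsp1, a leukocyte filament-binding protein, were at 0 in both. Vim, vimentin, an intermediate filament protein of mesenchymal cells and macrophages, was also at 0 in both. In a grouping made after the values were seen, Coro1a, Lcp1, Plek, Was and Lsp1 are the 5 members expressed mainly in leukocytes. Of these, 3 were listed, 2 of them in the nucleolin pull-down only, as were 37.1% of all genes compared. Their summed level was 11.9 FPKM in the IgG pull-down and 89.9 FPKM in the nucleolin pull-down, where Coro1a alone gave 57.6 FPKM. Because the grouping followed the values, no conclusion is drawn from these sums.

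Counted over the 22 genes compared, 8 (36.4%) stood 2-fold or more above the IgG pull-down in the nucleolin pull-down, 10 (45.5%) stood 2-fold or more below it and 4 were within 2-fold. Over all 3194 genes compared the shares were 37.8% higher and 56.7% lower, so the share of higher genes was near that background. The 8 higher genes included 7 listed at 0 in the IgG pull-down, and the 10 lower ones 6 listed at 0 in the nucleolin pull-down. Such genes had to differ once they passed the minimum of 1 FPKM. The median log2 ratio was -0.70 against -1.27 over all genes compared. With 6 and 7 genes in a single pull-down, the median of the 22 lay between Tmsb4x (-0.84) and Actb (-0.55). It thus describes these 2 genes more than the set. Among the 9 genes in both pull-downs the median was -0.84 against -1.19 over all 538, with 4 at least 2-fold lower against 63.6% of the 538. The summed level of the 52 genes was 1820 FPKM in the IgG pull-down and 889 FPKM in the nucleolin pull-down, a log2 ratio of -1.03.

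These signs depend on how the libraries are scaled. With 1 read set equal in both, the counts were 9 higher and 7 lower, against 40.5% and 46.9% of all genes. Centred on all genes they were 9 and 8, against 40.2% and 46.5%. Under the first of these changes the median log2 ratio of the 22 genes turned to 0.64. The log2 ratio of Actb turned from -0.55 to 0.79 and that of Tmsb4x from -0.84 to 0.50, while Pfn1 (-1.75) and Actg1 (-0.99) stayed lower and Cfl1 (2.02) and Lcp1 (2.48) stayed higher. Actn4 turned from -0.32 to 0.94. Which scaling is the right one is not settled by these files. FPKM divides by mapped fragments, while equal reads make no correction for depth. Whether ribosomal RNA was counted among the mapped fragments is not given in the sources used here.

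**Figure D3:**
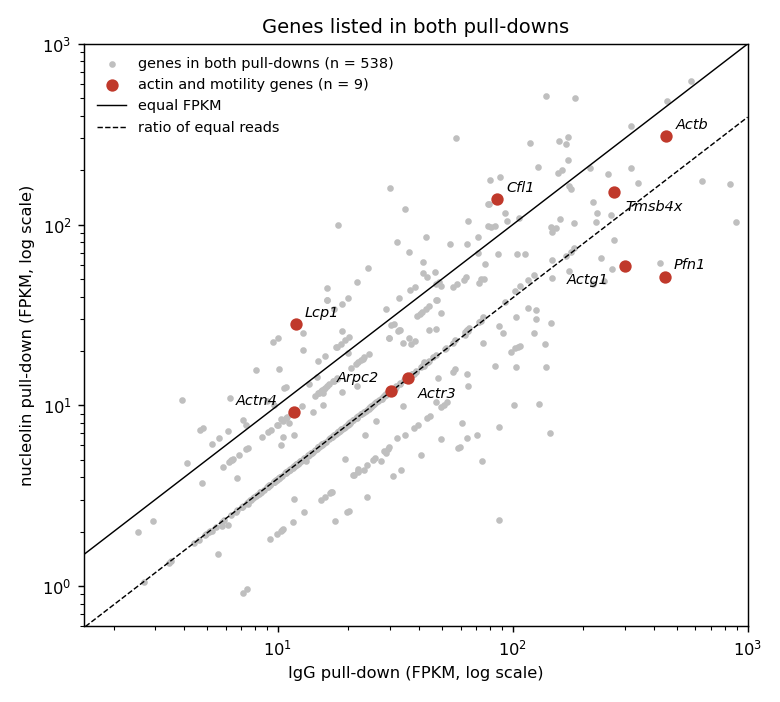
FPKM in the nucleolin pull-down (vertical, log scale) against the IgG pull-down (horizontal, log scale) for the 538 genes in both pull-downs (grey, 2 of them outside the axes) and the 9 actin and motility genes (red). The solid line is equal FPKM and the dashed line the ratio of equal reads, on which Actr3 and Arpc2 lie. Cfl1 and Lcp1 are above the solid line, and Pfn1 and Actg1 are below the dashed one.

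Dividing each FPKM ratio by 0.393, taken as the ratio of equal reads, gives the ratio of read numbers. Of the 9 genes in both pull-downs, 5 had more reads in the nucleolin pull-down, 2 had fewer and 2 were at equal reads within 0.05 on the log2 scale. Over the 538 genes the shares were 38.3% with more, 19% with fewer and 42.8% at equal reads. Lcp1 had 5.98 times as many reads in the nucleolin pull-down, Cfl1 4.08, Actn4 1.99, Actb 1.73 and Tmsb4x 1.41 times as many. Actg1 had 1.99 times and Pfn1 3.37 times as many in the IgG pull-down.

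The smallest whole numbers of IgG and nucleolin reads at these ratios were 1 and 6 for Lcp1, 1 and 4 for Cfl1, 1 and 2 for Actn4, 1 and 1 for Actr3 and Arpc2, and 2 and 1 for Actg1. Exact (Clopper-Pearson) 95% intervals of the FPKM ratio from such pairs were 0.286 to 108.6 for Lcp1, 0.156 to 77.5 for Cfl1, 0.0410 to 46.4 for Actn4, 0.00501 to 30.9 for Actr3 and Arpc2, and 0.00333 to 3.78 for Actg1. All of them include equal FPKM, which decides nothing, because the smallest pairs were used. Actg1 and Cfl1 also stood above the 60 FPKM (IgG) and 30 FPKM (nucleolin) under which the worth of 1 read was taken. Their pairs need not be their read numbers. The intervals are the widest possible, because each pair could stand for any multiple of itself, and cover counting error only. Actr3 and Lcp1 carried values on more than 1 transcript row, and their pairs rest on the sums. For Actb, Pfn1 and Tmsb4x no pair of at most 8 reads lay within the tolerance, so they rest on more than 8 reads if their ratios are those of whole reads.

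**Figure D4:**
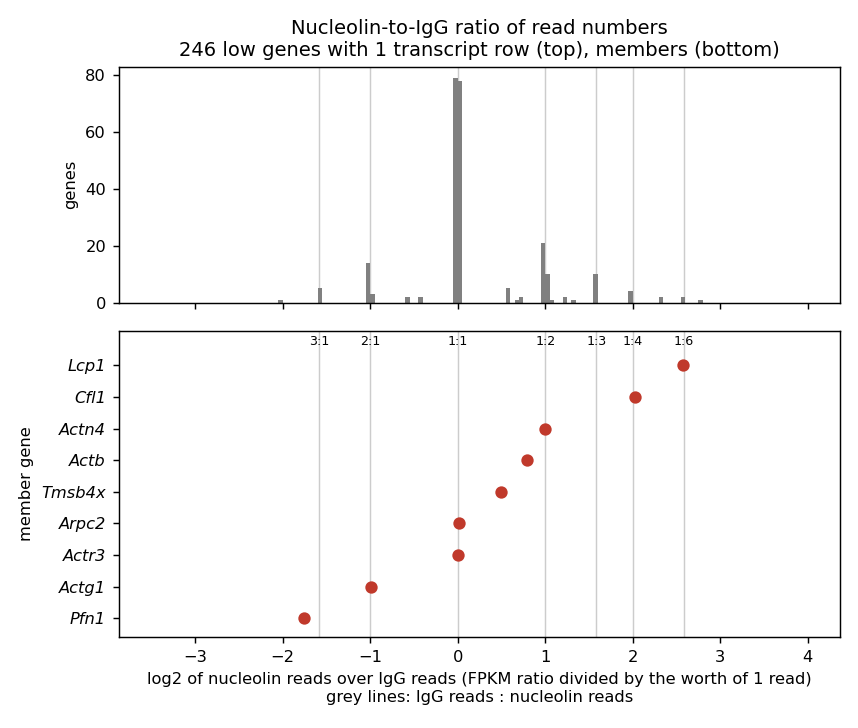
Log2 of the ratio of nucleolin reads to IgG reads (horizontal axis), as a histogram of 246 low genes with 1 transcript row (top, number of genes) and for the 9 members in both pull-downs (bottom). Grey lines mark ratios of small whole numbers, and 157 of the 246 genes lie at 1:1, as Actr3 and Arpc2 do.

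The level of a member also bears on the number of reads behind it. Genes with 1 transcript row were found at equal reads up to 178 FPKM (IgG) and 70.3 FPKM (nucleolin). The table had 129 genes above these levels in at least 1 pull-down, of which 66 (51.2%) were in both. Members above them were Actb, Actg1, Cfl1, Pfn1 and Tmsb4x, and all 5 were in both pull-downs. All 13 members in a single pull-down lay below, from 11.1 to 61.0 FPKM in the IgG pull-down and from 4.23 to 57.6 FPKM in the nucleolin pull-down. Over all genes compared, 1470 were in the IgG pull-down only and 1186 in the nucleolin pull-down only. With 129 genes above these levels and 66 of those in both, nearly all genes in a single pull-down lay below too. The medians of the low genes at equal reads were 17.2 FPKM (IgG) and 6.76 FPKM (nucleolin). A difference such as that between Arpc5 and Actr2, or between Msn and Ezr, can therefore rest on very few reads.

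Beyond these members, a list of 86 other actin regulators (small GTPases, formins, myosins, tropomyosins, integrins and adaptors) showed 41 genes compared (47.7%). The share over all genes in the table was 13.4%. Of the 41 genes, 15 were 2-fold or more above and 23 were 2-fold or more below the IgG pull-down. These are 36.6% and 56.1% of the 41, near the 37.8% and 56.7% of all genes. Their median log2 ratio was -1.23, against -1.27 over all genes. With 14 of the 41 in the IgG pull-down only and 15 in the nucleolin pull-down only, this median was the value of 1 gene, Tpm1. Its nearness to the median of all genes is therefore no result about the list. In both pull-downs were 12 of the 41 (29.3%), against 16.8% of all genes compared. The 8 with the highest level in either pull-down are named here. A read added more FPKM in the IgG pull-down, so this choice leans toward genes listed there, and all 8 were lower in the nucleolin pull-down as deposited. Cdc42, a small GTPase that activates the branching machinery, was at 0 in the IgG pull-down and 25.8 FPKM in the nucleolin pull-down, the highest level there among the 15 higher genes, and is named after its value was seen. Of the 8, Gsn, gelsolin, a severing protein also abundant in muscle and secreted into plasma, was at 144 FPKM in the IgG pull-down and 7.07 FPKM in the nucleolin pull-down, 20.3 times lower in the latter. Tpm2, a tropomyosin prominent in muscle, was at 44.3 and 8.76 FPKM. The smooth muscle markers Tagln, Cnn1 and Des were at 214, 47.4 and 29.5 FPKM in the IgG pull-down and 0 in the nucleolin pull-down, and their part in these values was not tested.

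Tpm3, Tpm1 and Tagln2, filament-binding proteins of many cell types, were at 62.4, 41.9 and 35.8 FPKM in the IgG pull-down. In the nucleolin pull-down they were at 24.6, 17.3 and 14.3 FPKM, all 3 within the tolerance of equal reads or just past it (read ratios of 1.00, 1.05 and 1.02). Tpm1 had 10 transcript rows. Its log2 ratio of -1.23 was -0.26, within 2-fold, when only the highest row was taken in each pull-down. The highest rows of the pull-downs need not be the same transcript. Cap1, which recycles actin subunits with cofilin, was at 33.2 and 26.1 FPKM, a read ratio of 2.0. Its log2 ratio of -0.33 turned to 0.98 with 1 read set equal and to 0.93 when centred. Abracl, a small cytosolic protein, was at 69.6 FPKM and Marcks, a membrane-bound filament crosslinker, at 31.8 FPKM in the IgG pull-down, both at 0 in the nucleolin pull-down.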

How the data were processed

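The members and lists were chosen with earlier results of these data known. The authors deposited 1 table of FPKM values in 33529 transcript rows, with a column for each pull-down. The submitters' processing notes name FastQC 0.10.0, Trimmomatic 0.32 and mm10; no aligner, counting tool, strand setting or rule for reads with several alignments is given in the sources used here. The sample titled for nucleoplasmic RNA was assigned to the nucleolin column (NCL) through the series' design text.

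Rows were summed per symbol, leaving out 56 rows without one (Python 3.11.15, pandas 2.3.3, numpy 2.4.6, scipy 1.17.1). Of the members 10 had more than 1 row. Positions came from RefSeq GRCm38.p6, in which all 52 were found. Every member at 1 FPKM or more was named, and the 8 highest of the other list. The worth of 1 read was the most frequent ratio among genes under 60 FPKM (IgG) and 30 FPKM (nucleolin). Pairs of at most 8 reads were matched within 0.05 (log2), and windows of that width cover 35.2% of the range of ratios, so a match is weak evidence. The steps were tested on simulated data with the same expected reads in both libraries. That cannot show that the most frequent ratio here is the one of equal reads. Fold changes were simulated at high read numbers only. Alternatives were pseudocounts of 0.1 and 10 FPKM, a minimum of 10 FPKM or none, centring on all genes, 1 read set equal, and the highest row per symbol. The highest row was taken in each pull-down separately.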

Additional observations from a re-analysis of the deposited data

How the results depend on the processing

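No paired analysis was possible because each group had 1 library. Among the members, the count of 8 higher genes was 4 with a pseudocount of 10 FPKM and 5 with a minimum of 10 FPKM, and otherwise stayed between 8 and 9. Over all genes the share of higher genes also fell, from 37.8% to 13.7% and 22.0%, and that of lower genes was 39.4% and 70.7%. The count of 10 lower genes stayed between 7 and 10. Their median log2 ratio of -0.70 was -0.67 with a pseudocount of 10 FPKM and -1.26 with a minimum of 10 FPKM, against -0.70 and -3.70 over all genes. Centring on all genes turned it to 0.57 and equal worth of 1 read to 0.64. The summed log2 ratio of -1.03 turned to 0.23 and 0.31 under the same 2 changes. For the 86 other regulators, the 15 higher genes became 4 with a pseudocount of 10 FPKM and 4 with a minimum of 10 FPKM. The 23 lower genes became 14 with that pseudocount, 15 when centred and 15 with 1 read set equal. Their median of -1.23 was -1.33 with a pseudocount of 0.1 FPKM, -0.69 with 10 FPKM, -1.57 with a minimum of 10 FPKM (all genes: -1.33, -0.70 and -3.70) and -1.24 with the highest row per symbol, and became 0.037 after centring and 0.011 at equal worth of 1 read. Among single genes, Arpc2 turned to 0.0050 after centring and 0.015 at equal worth of 1 read, and Tpm1 to 0.037 and 0.067. Tpm3 and Tagln2 turned to 0.0052 and 0.021 at equal worth of 1 read. Centring also turned Actb to 0.72, Actn4 to 0.95, Tmsb4x to 0.42 and Cap1 to 0.93. The minimum of 10 FPKM lies between the medians of low genes at equal reads, 6.76 FPKM (nucleolin) and 17.2 FPKM (IgG). The lack of replicates and the small read numbers limit every value.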
